A study of Mus musculus with 2 samples.

Results

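Foxp3-expressing T cells were picked out of scRNA-seq of donor T cells sorted from the spleen during acute graft-versus-host disease (aGvHD). A cell was taken when its barcode held at least 1 unique molecular identifier (UMI, a count of captured RNA molecules) of Foxp3, at least 3 UMIs summed over the T cell receptor complex genes Cd3d, Cd3e, Cd3g, Trac, Trbc1 and Trbc2, and fewer than 5 summed over the macrophage genes C1qa, C1qb and C1qc. Only barcodes with 500 to 7500 detected genes and no more than 15% mitochondrial UMIs were considered. The rule found 285 cells among 14973 such barcodes of both libraries, 197 at day +7 and 88 at day +14. Foxp3 therefore chose the cells, and its own level in them is a description.

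Foxp3 is the lineage-defining transcription factor of regulatory T cells (Tregs), which restrain other T cells and are known to limit aGvHD. Most Tregs carry the CD4 co-receptor, hold high amounts of the IL-2 receptor alpha chain CD25 (encoded by Il2ra) and of the inhibitory receptor CTLA-4, and many express the transcription factor Helios (Ikzf2). CD8 T cells with Foxp3 have also been described in mouse transplantation models.

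Recipients were lethally irradiated BALB/c mice given T cell-depleted bone marrow and splenic T cells of wild-type C57BL/6 donors, a fully allogeneic pair. Sorted cells carried CD45, the donor molecule H2kb and TCRβ and lacked the host molecule H2kd, so the recipients' own T cells were gated out. Spleens of several recipients were pooled into a single library per day, and both library names carry PBS. Day and library therefore cannot be told apart. The label of each library describes a sort on day +7, while the titles and the design name both days. The study's mice were young adults, matched for age across groups. The paper's methods name female mice there, but state elsewhere that both sexes were used in vivo. Total counts were 87124828 UMIs at day +7 and 84233811 at day +14. No replicates exist, so no difference could be tested, and all intervals below are 95% intervals of counting error alone. Both libraries shared 20 barcode sequences, 0 of which belonged to a Foxp3-expressing cell.

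The start regions of Foxp3, Il2ra and Ctla4 are printed to show the letters upstream of the gene that chose the cells and of 2 of its companions. Each run is the 250 bases before a RefSeq start site in build GRCm38.p6, on the plus strand, 5′ to 3′. The windows are chrX:7579426-7579675 and chrX:7580233-7580482 for both Foxp3 starts, chr2:11642542-11642791 for Il2ra and chr1:60908775-60909024 for Ctla4. Capitals mark matches, on either strand, to GGAAA (an NFAT core), TTCNNNGAA (a STAT palindrome) or TAAACA (a forkhead core).
Foxp3, first start: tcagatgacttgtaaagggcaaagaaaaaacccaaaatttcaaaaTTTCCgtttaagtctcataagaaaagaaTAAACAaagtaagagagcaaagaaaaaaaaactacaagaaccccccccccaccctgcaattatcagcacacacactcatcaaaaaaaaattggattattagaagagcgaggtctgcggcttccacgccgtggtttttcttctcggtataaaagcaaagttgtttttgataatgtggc
Foxp3, second start: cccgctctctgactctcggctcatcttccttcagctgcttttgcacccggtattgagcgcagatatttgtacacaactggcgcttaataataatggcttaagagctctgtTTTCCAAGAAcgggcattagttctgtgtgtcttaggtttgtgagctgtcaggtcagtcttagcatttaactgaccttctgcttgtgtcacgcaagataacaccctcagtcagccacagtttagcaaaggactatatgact
Il2ra: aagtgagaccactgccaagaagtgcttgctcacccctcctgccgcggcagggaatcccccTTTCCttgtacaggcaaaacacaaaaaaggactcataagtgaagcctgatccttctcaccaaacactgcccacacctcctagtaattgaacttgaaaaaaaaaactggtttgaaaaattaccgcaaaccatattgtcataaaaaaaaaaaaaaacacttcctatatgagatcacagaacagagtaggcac
Ctla4: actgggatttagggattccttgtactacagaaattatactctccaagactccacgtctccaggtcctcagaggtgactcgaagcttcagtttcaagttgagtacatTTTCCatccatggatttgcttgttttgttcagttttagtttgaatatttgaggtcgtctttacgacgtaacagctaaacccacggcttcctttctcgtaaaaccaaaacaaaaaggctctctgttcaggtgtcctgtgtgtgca
The second Foxp3 window held a STAT palindrome, 139 to 131 bases before the start and overlapping an NFAT core, and the first window held a forkhead core. STAT5 downstream of the IL-2 receptor and NFAT downstream of the T cell receptor are known regulators of Foxp3. The palindrome occurs in 7.02% of 32851 promoter windows of this length, the forkhead core in 12% and the NFAT core in 55.6%, so the last is a common match. TGANTCA (AP-1), searched as well, had 0 matches in these windows and occurs in 6.75% of all. A match is a run of letters, not a measured binding site.

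Among T cells, defined by the T cell receptor complex and C1q limits above, 197 of 6912 (2.85%, interval 2.47 to 3.27) had a Foxp3 UMI at day +7. At day +14 it was 88 of 7601 (1.16%, interval 0.930 to 1.42). The share was thus lower in the later library beyond counting error. Foxp3-expressing cells were deeper than the other T cells, with a median of 11274 against 9124 UMIs at day +7 and 8588 against 8191 at day +14. With every cell thinned to 4000 UMIs, 111 of 6817 T cells (1.63%) and 47 of 6748 (0.697%) still had a Foxp3 UMI, in the same order. Thinning left out 198 and 969 shallower barcodes, of which 5 and 12 were Foxp3-expressing. In kept barcodes with 0 UMIs of the T cell receptor complex genes, 0 of 115 had Foxp3 at day +7, which allows a share of up to 2.61%, and 0 of 76 at day +14, which allows up to 3.95%. The exact upper limits of these shares were 3.16% and 4.74%. The median depth of these barcodes was 6806 and 2660.5 UMIs. On both days they were too few to place a background below the share of Foxp3-expressing cells.

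Most Foxp3-expressing cells held few Foxp3 UMIs, as is usual for a transcription factor in droplet data. At day +7, 66 cells had 1 UMI, 89 had 2 or 3 and 42 had 4 or more, up to 9. The later library held 38, 34 and 16 cells in these classes, up to 11 UMIs, and the median was 2 on both days. A limit of 2 UMIs would have kept 1.90% and 0.658% of T cells. Just inside the rule, 4 of 61 barcodes with 3 or 4 C1q UMIs at day +7 and 0 of 61 at day +14 had Foxp3. Just outside it, Foxp3 was found in 3 of 84 and 2 of 55 barcodes with 5 or more C1q UMIs. No Foxp3 was seen in the 68 and 62 barcodes with 1 or 2 T cell receptor complex UMIs, nor in the 13 and 17 with exactly 3.

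The label of regulatory T cells held for the companion markers and only in part for the co-receptor. At day +7, 140 of the 197 cells (71.1%, interval 64.2 to 77.3) carried Cd8a or Cd8b1 without any Cd4 UMI and are called CD8-type. Only 20 cells (10.2%, interval 6.31 to 15.2) were CD4-type by the mirror rule, 15 (7.61%) had both and 22 (11.2%) had neither. At day +14, 35 of 88 cells (39.8%, interval 29.5 to 50.8) were CD8-type, 14 (15.9%, interval 8.98 to 25.2) CD4-type, 14 both and 25 (28.4%) neither. Cells without any Cd8a or Cd8b1 UMI, here called Cd8-negative, made up 42 (21.3%) and 39 (44.3%) of the Foxp3-expressing cells. With cells thinned to 4000 UMIs the CD8-type share was 68.5% and 38.3%.

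The CD8-type cells with Foxp3 held raw CD8 UMI counts near those of the other CD8-type cells, without regard to their greater depth. Summed Cd8a and Cd8b1 UMIs had a median of 11 per Foxp3-expressing CD8-type cell at day +7 and 9 at day +14, beside 9 and 10 in CD8-type cells without Foxp3. Scaled to total UMIs, the median log2 ratio of Cd8a and Cd8b1, with over without Foxp3, was 0.25 at day +7 and -0.54 at day +14. Of Foxp3-expressing CD8-type cells, 5 of 140 (3.57%) at day +7 and 5 of 35 (14.3%) at day +14 rested on 1 Cd8 UMI. Among CD8-type cells without Foxp3 it was 3.96% and 3.30%. A Cd8 UMI was present in 10 of the 115 barcodes lacking T cell receptor complex UMIs (8.70%) and in 7 of 76 (9.21%), none with 4 or more. Runx3, the factor of the CD8 lineage, stood at 196 and 254 CPM (UMIs of the gene per 1000000 UMIs of the class) in Foxp3-expressing CD8-type cells at day +7 and day +14, and at 58.7 and 98.7 CPM in CD4-type ones. Zbtb7b, the factor of the CD4 lineage, stood at 15.8 and 13.5 CPM against 34.2 and 43.8 CPM. Both genes were added after the co-receptor split had been seen.

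Seen from the other side, 2.36% of CD8-type T cells (interval 1.99 to 2.78) had a Foxp3 UMI at day +7 and 0.586% (0.409 to 0.815) at day +14. Among CD4-type T cells it was 4.20% (2.59 to 6.41) and 1.98% (1.09 to 3.30), and among all Cd8-negative T cells 5.39% (3.91 to 7.22) and 3.49% (2.49 to 4.73). CD8-type cells were 85.7% and 78.5% of all T cells, so a low share of a large class made most of the Foxp3-expressing cells at day +7. The share was lower at day +14 in each of these classes. In CD8-type cells the decline exceeded counting error. The intervals of the CD4-type and Cd8-negative shares overlapped, which does not by itself place their declines within counting error.

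**Figure D1:**
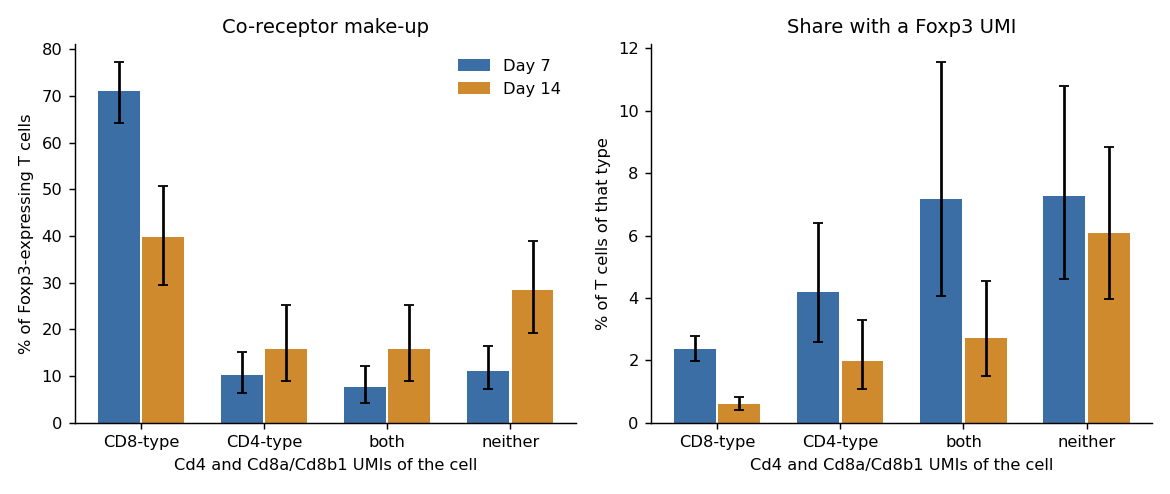
Co-receptor class of Foxp3-expressing T cells in percent (left) and percent of each T cell class with a Foxp3 UMI (right), for Day 7 (blue) and Day 14 (orange), with 95% Clopper-Pearson intervals as error bars. CD8-type cells make up 71.1% of Foxp3-expressing cells at Day 7 and 39.8% at Day 14, and 2.36% and 0.586% of CD8-type T cells have a Foxp3 UMI.

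Droplets that hold 2 cells could join Foxp3 of one cell to Cd8 of another. The 433 and 518 barcodes with the highest Scrublet scores, which measure likeness to simulated doublets, were looked up in each class. Of Foxp3-expressing CD8-type cells, 13 of 140 (9.29%, 5.04 to 15.4) at day +7 and 6 of 35 (17.1%, 6.56 to 33.7) at day +14 were among them, beside 5.76% and 5.87% of Foxp3-zero CD8-type cells. For Cd8-negative cells the shares were 2.38% and 0 of 39 with Foxp3, and 2.44% and 1.94% without. Median depth was 11596 and 12132 UMIs in Foxp3-expressing CD8-type cells against 9237.5 and 8582 in Foxp3-zero ones, and 8872.5 and 4807 against 7314 and 4939 in Cd8-negative cells. The part of doublets in the CD8-type class was not tested beyond leaving these barcodes out. With them left out, 18 genes were higher in Foxp3-expressing CD8-type cells at both days by the rule given below, 14 of them among the 16 found with all cells.

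The 3 markers other than Foxp3 were compared within co-receptor class, which keeps CD8-type and Cd8-negative cells apart. The Cd8-negative class still pools CD4-type cells with cells that had neither co-receptor. The latter were 22 of 42 and 25 of 39 cells with Foxp3 (day +7, then day +14), against 281 of 737 and 386 of 1080 without. Cd4 itself had log2 ratios of -0.53 and -1.04 in this class, so its make-up differed between the sides compared. Levels are UMIs summed over the cells of a class and scaled to CPM, and the cells without Foxp3 UMIs serve as the control. Log2 ratios have 1 CPM added to both sides, while the interval in brackets is an exact binomial one of the bare ratio and so need not be centred on it.

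Ctla4, which removes costimulatory ligands from antigen-presenting cells, stood in Cd8-negative cells with Foxp3 at 348 CPM and 769 CPM (day +7, then day +14), against 53.9 and 88.5 CPM without Foxp3. In CD8-type cells it was 231 and 275 CPM against 44.7 and 42.9 CPM. Every Foxp3-expressing class was above its control on both days, with log2 ratios of 2.67 [2.41, 2.96] and 3.11 [2.88, 3.35] in Cd8-negative cells and 2.35 [2.23, 2.51] and 2.65 [2.42, 2.92] in CD8-type cells. A Ctla4 UMI was found in 36 of 42 and 35 of 39 Cd8-negative cells and in 112 of 140 and 30 of 35 CD8-type cells.

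Ikzf2 (Helios) had the widest ratio of the markers in Cd8-negative cells, 532 and 1022 CPM against 32.3 and 57.5 CPM, or 4.0 [3.77, 4.31] and 4.13 [3.92, 4.38] on the log2 scale. CD8-type cells held 129 and 290 CPM against 15.3 and 85.0 CPM, so that the log2 ratio was 2.99 [2.87, 3.26] at day +7 and 1.76 [1.53, 2.01] at day +14. The control level of Ikzf2 in CD8-type cells was itself higher in the later library.

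Il2ra (CD25) was at 221 and 202 CPM in Cd8-negative cells with Foxp3 against 43.7 and 16.7 CPM without, log2 2.31 [1.99, 2.67] and 3.52 [3.10, 4.08]. CD8-type cells with Foxp3 held 162 CPM at day +7 but 42.6 CPM at day +14, against 36.3 and 5.17 CPM, log2 2.12 [1.98, 2.32] and 2.82 [2.35, 3.66]. Il2ra was thus lower at day +14 in CD8-type cells with and without Foxp3, and the ratio between them remained above 2-fold. It fell out of the gene counts for CD8-type cells because its day +14 level was under the 50 CPM limit.

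CD4-type cells, although few, gave like values. Their log2 ratios were 2.44 [2.01, 2.91] and 3.55 [3.22, 3.89] for Ctla4, 3.81 [3.44, 4.25] and 4.14 [3.82, 4.50] for Ikzf2, and 2.33 [1.90, 2.78] and 3.56 [2.92, 4.27] for Il2ra.

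The markers also met in single cells. With all cells thinned to 4000 UMIs, at least 2 of Il2ra, Ctla4 and Ikzf2 were detected in 38.2% of Foxp3-expressing CD8-type cells at day +7 (interval 30.0 to 47.0) and 33.3% at day +14 (18.0 to 51.8), against 2.87% and 4.34% of Foxp3-zero ones. In Cd8-negative cells it was 61.0% (44.5 to 75.8) and 90.0% (73.5 to 97.9), against 5.29% and 7.23%. Unthinned, the shares were 77.1% and 65.7% in CD8-type and 88.1% and 92.3% in Cd8-negative cells with Foxp3, against 14.4% and 17.4%, and 13.4% and 12.4%, in their controls. Thinned barcodes without T cell receptor complex UMIs had none of the 3 at day +7 (0 of 71) and only Ctla4, in 1 of 29, at day +14.

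**Figure D2:**
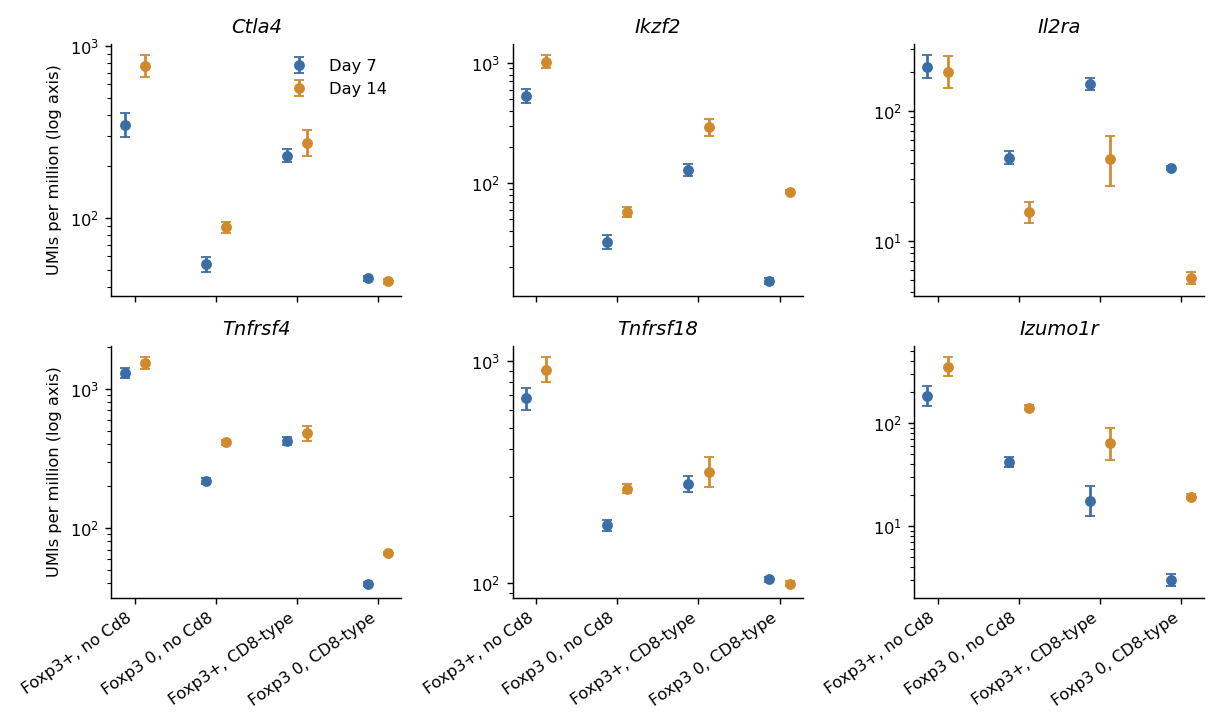
Level of 6 Treg identity genes in CPM on a log axis, in cells with (Foxp3+) and without (Foxp3 0) Foxp3 UMIs, for cells without Cd8 UMIs and CD8-type cells, Day 7 in blue and Day 14 in orange, with exact Poisson 95% intervals. In every panel the Foxp3-expressing cells of a class lie above the Foxp3-zero cells of the same class and day.

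The companion genes were not carried only by cells with many Foxp3 UMIs. In CD8-type cells at day +7, Ctla4 was at 44.7 CPM with 0 Foxp3 UMIs, 154 CPM with 1 (44 cells, interval 124 to 188), 212 CPM with 2 or 3 (65 cells, 185 to 242) and 388 CPM with 4 or more (31 cells, 332 to 452). Il2ra went through 36.3, 103, 140 and 296 CPM over the same classes, and Tnfrsf4 through 39.7, 338, 336 and 740 CPM. Ikzf2 was at 15.3, 108, 137 and 136 CPM, so it differed between 0 and 1 Foxp3 UMI and little beyond. Median depth rose along these classes from 9237.5 through 10267 and 12169 to 14626 UMIs, and its part in the gradient was not tested beyond the scaling to CPM.

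At day +14 the CD8-type classes held 19, 10 and 6 cells. Ctla4 stood at 249, 284 and 318 CPM in them against 42.9 CPM with 0 Foxp3 UMIs, and Ikzf2 at 120, 410 and 467 CPM against 85.0 CPM. Cd8-negative cells reached their Ctla4 level at the first Foxp3 UMI, with 322, 355 and 413 CPM at day +7 and 707, 888 and 648 CPM at day +14, and the intervals of these classes overlapped on each day.

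**Figure D3:**
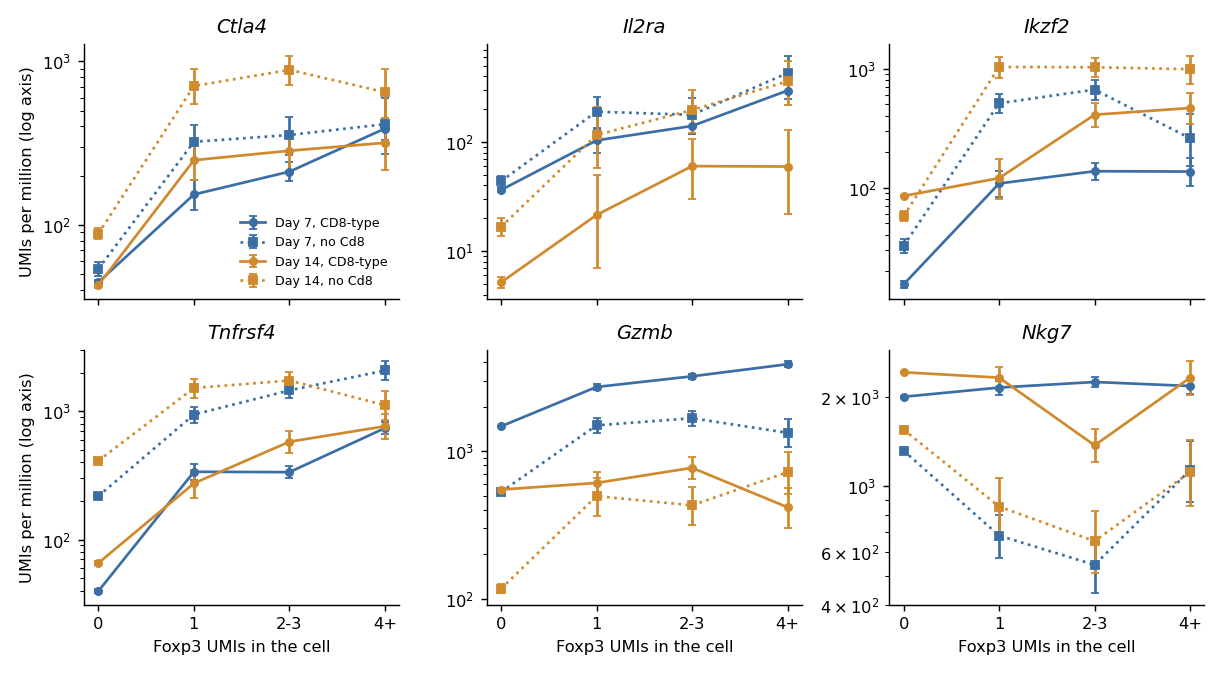
Level of 6 genes in CPM on a log axis by the number of Foxp3 UMIs in the cell (0, 1, 2-3, 4+), for CD8-type cells (circles) and cells without Cd8 UMIs (squares), Day 7 in blue and Day 14 in orange, with exact Poisson 95% intervals. Ctla4 of CD8-type cells at Day 7 goes from 44.7 to 154, 212 and 388 over the 4 classes.

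Beyond the markers, a gene was counted when it reached 50 CPM in the higher class of each library and was past 2-fold in the same direction on both days. CD4-type cells were the comparison set at the outset, but with 20 and 14 Foxp3-expressing cells a single cell could set a gene's sum, so the CD8-type and Cd8-negative comparisons were added after the make-up had been seen. CD4-type cells had 72 higher and 37 lower genes among 2578 (2.79% and 1.44%), Cd8-negative cells 58 and 42 among 2588 (2.24% and 1.62%), and CD8-type cells 16 and 2 among 2477 (0.646% and 0.0807%). The first 2 sets share cells and are not independent. The median log2 ratio of all tested genes lay between -0.08 and 0.05 in these comparisons. Both days' intervals left out 0 for every gene counted in the Cd8-negative and CD8-type comparisons, and for 63 of 72 and 28 of 37 in the CD4-type one. Past 2-fold in opposite directions were 6 genes in CD4-type, 2 in Cd8-negative and 1 in CD8-type cells.

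Setting each gene's highest Foxp3-expressing cell to 0 left 37 of 72 higher genes in CD4-type cells, 46 of 58 in Cd8-negative cells and 12 of 16 in CD8-type cells, where Klrg1, Igtp, Samsn1 and Sdf4 dropped out. CD4-type values are therefore named below only where they add to the larger Cd8-negative class.

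Of the 16 genes higher in Foxp3-expressing CD8-type cells, 14 were also among the 72 of CD4-type cells (87.5% of the former, 19.4% of the latter), a comparison of cells that do not overlap but come from the same libraries. They were Ctla4, Ikzf2, Tnfrsf4, Tnfrsf18, Klrg1, Maf, Il7r, Cd74, Ighm, Igtp, Arl5a, Hbs1l, Glrx and Samsn1. Gm2a and Sdf4 made up the 16. The CPM limit applied to the higher class, which favours overlap among higher genes. In CD8-type cells Ctla4, Klrg1, Maf, Il7r and Cd74 passed it only through the Foxp3-expressing side on both days. These genes could be counted only as higher there, so their shared direction is not independent of the limit.

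**Figure D4:**
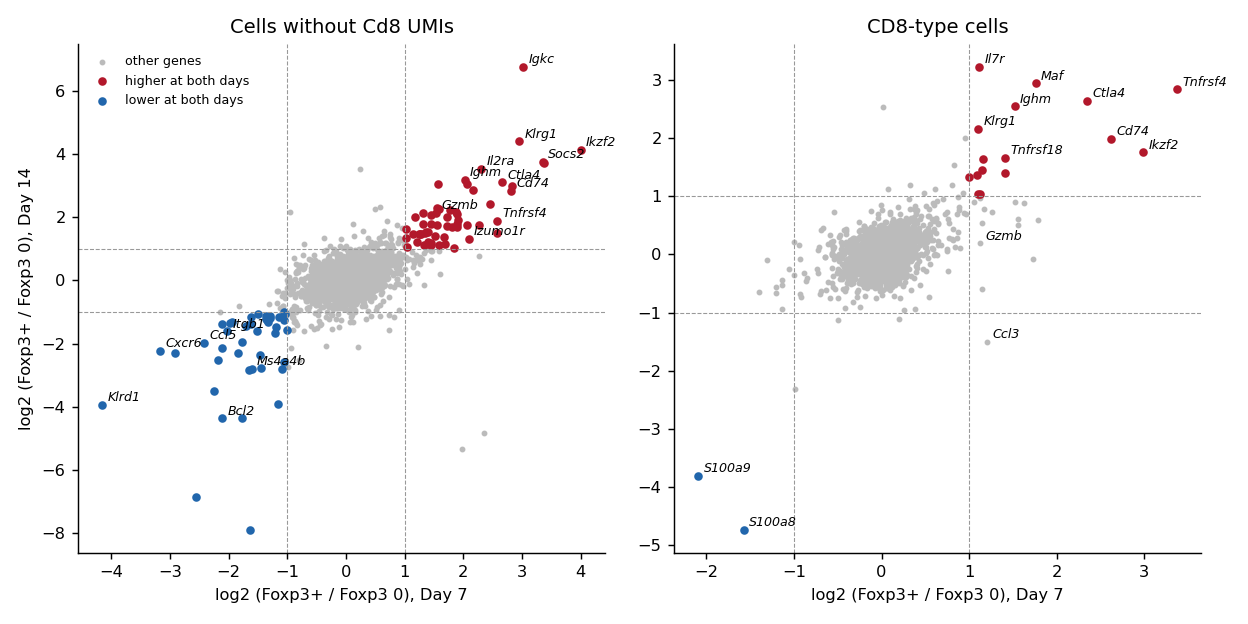
Log2 ratio of each gene's level in Foxp3-expressing over Foxp3-zero cells at Day 7 (horizontal) and Day 14 (vertical), for cells without Cd8 UMIs (left) and CD8-type cells (right), with 1 CPM added. Red points are past 2-fold higher and blue points past 2-fold lower at both days, 58 and 42 on the left and 16 and 2 on the right, and dashed lines mark 2-fold.

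Treg identity genes that passed the CPM limit went mostly one way, which the limit itself favours. It applied to the higher class, so Il2ra and Socs2 passed in Cd8-negative cells only through the Foxp3-expressing side, as did Ikzf2 at day +7. In CD8-type cells Ctla4 passed only through that side on both days, and Ikzf2 and Tnfrsf4 did so at day +7. Such genes could be counted only as higher. Nrp1, lower with Foxp3, fell short of the limit at day +7. All 8 of the 13 listed genes that reached 50 CPM were higher on both days in Cd8-negative cells (median log2 2.44 and 2.55), and 4 of 5 in CD8-type cells (2.35 and 2.01), while all tested genes had medians near 0. Tnfrsf4 (OX40), a costimulatory receptor of Tregs and activated T cells, was at 1303 and 1523 CPM against 218 and 412 CPM in Cd8-negative cells, log2 2.57 [2.44, 2.72] and 1.88 [1.73, 2.04]. It was at 420 and 478 CPM against 39.7 and 65.7 CPM in CD8-type cells, log2 3.37 [3.29, 3.51] and 2.84 [2.67, 3.05], the widest ratio of the CD8-type comparison at day +7.

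Tnfrsf18 (GITR), its relative, had log2 ratios of 1.89 [1.71, 2.08] and 1.78 [1.58, 1.98] in Cd8-negative and 1.41 [1.30, 1.54] and 1.67 [1.44, 1.90] in CD8-type cells. Socs2, a target of STAT5, was at 148 and 97.1 CPM in Cd8-negative cells with Foxp3 against 13.6 and 6.25 CPM, log2 3.35 [2.97, 3.92] and 3.76 [3.19, 4.69]. Izumo1r, the Treg-rich folate receptor 4, differed by 2.09 [1.74, 2.48] and 1.31 [0.99, 1.63], and the actin-capping gene Capg by 1.17 [0.99, 1.36] and 2.0 [1.78, 2.23]. In CD8-type cells Capg narrowly missed at day +7, with 0.96 [0.87, 1.05], and was at 2.01 [1.78, 2.25] at day +14.

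The other 5 identity genes did not reach 50 CPM on both days. Ikzf4 (Eos) was at 31.8 and 58.3 CPM in Cd8-negative cells with Foxp3 against 1.01 and 4.72 CPM. Lrrc32 (GARP), which displays latent TGF-β, had 7 and 4 UMIs in Cd8-negative Foxp3-expressing cells and 0 and 1 in the 737 and 1080 controls, at least 36.8-fold higher at day +7 against a floor of 3 UMIs over the controls. Itgae, the integrin chain that binds E-cadherin, was at 29.6 and 46.6 CPM against 1.01 and 1.67 CPM. Nrp1, often used to mark thymus-derived Tregs, was lower in level, 15.9 and 19.4 CPM against 44.0 and 50.4 CPM. Gpr83 had 2 UMIs at day +7 and 0 at day +14.

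Suppressive-function genes were mostly too low to count. Of 15 listed, 3 were tested in Cd8-negative cells and only Pdcd1lg2 (PD-L2) was past 2-fold on both days, 68.2 and 89.4 CPM against 25.2 and 30.6 CPM. None of 3 passed in CD8-type cells. Il10 was carried by 7 of 42 and 6 of 39 Cd8-negative cells, 22.7 and 54.4 CPM against 1.01 and 2.08 CPM, and in CD8-type cells at day +14 by 4 cells with 24 UMIs, 19 of them in 1 cell. Penk, an enkephalin precursor found in some Tregs, went from 25 CPM at day +7 to 583 CPM at day +14 in Cd8-negative cells with Foxp3, but 2 and 10 cells held these UMIs. It was also past 2-fold higher at day +14 in Foxp3-zero Cd8-negative cells. Foxp3-zero CD4-type cells held 7.84 and 116 CPM. Lag3 was at 31.8 and 183 CPM against 53.5 and 105 CPM, below the control on the first day and above it on the second.

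Effector Treg genes split. Of 9 tested in Cd8-negative cells, Klrg1, Maf, Tnfrsf9 and Tnfrsf1b were higher and Pdcd1 and Cd44 lower on both days. Klrg1, a receptor of terminally differentiated lymphocytes, was at 239 and 567 CPM against 30.1 and 25.8 CPM, log2 2.94 [2.63, 3.33] and 4.40 [4.13, 4.78]. In CD8-type cells it was at 82.0 and 188 CPM against 37.5 and 41.0 CPM, log2 1.11 [0.90, 1.35] and 2.17 [1.89, 2.49].

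Maf, a transcription factor tied to IL-10, differed by 1.24 [1.00, 1.47] and 1.46 [1.24, 1.68] in Cd8-negative and 1.76 [1.57, 2.03] and 2.95 [2.65, 3.37] in CD8-type cells, where Klrg1 and Maf were the 2 of 8 that counted. With its highest cell at 0 on each day, Klrg1 of CD8-type cells was at 0.98 and 1.96, just short of 2-fold at day +7. Tnfrsf9 (4-1BB) differed by 2.45 [2.18, 2.76] and 2.41 [2.13, 2.71] in Cd8-negative cells. In CD8-type cells Tnfrsf9 was past 2-fold only at day +7, with 1.56 [1.44, 1.70] and then 0.50 [0.23, 0.76]. Tnfrsf1b (TNFR2) stood at 102 and 210 CPM against 27.3 and 46.5 CPM in Cd8-negative cells. Pdcd1 (PD-1) was at 47.7 and 77.7 CPM against 139 and 239 CPM, and Cd44 at 20.5 and 23.3 CPM against 71.8 and 92.7 CPM. In CD4-type cells Prdm1 (Blimp-1) joined the higher genes, for 5 of 10, with Cd44 as the lower one.

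Genes of resting and central T cells did not move as a block. Il7r, the IL-7 receptor alpha chain, was higher in Cd8-negative Foxp3-expressing cells, 252 and 260 CPM against 84.1 and 30.4 CPM, and was the 1 of 2 that counted in CD8-type cells, with 104 and 85.2 CPM against 47.6 and 8.21 CPM. Textbook Tregs are low in Il7r, and here both classes with Foxp3 were above their controls on each day.

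In the same list of 7 tested, Klf2, which drives exit from lymphoid organs, and the survival gene Bcl2 were lower. Klf2 was at 182 and 117 CPM against 446 and 270 CPM. Bcl2 was at 13.6 and 3.89 CPM against 62.0 and 99.6 CPM. Tcf7 (TCF-1), the factor of naive and stem-like T cells, had 0 UMIs in all Cd8-negative Foxp3-expressing cells on both days. Controls held it at 43.5 and 66.1 CPM, so Tcf7 was at least 6.38-fold and 5.67-fold lower, taking a floor of 3 UMIs over the class.

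Few genes of IL-2 signalling and cytokines were past 2-fold. Of 6 IL-2 and STAT5 genes tested in Cd8-negative cells only Cish was counted, 100 and 89.4 CPM against 34.2 and 33.2 CPM, and of 4 in CD8-type cells none. Outside that list, Pim1 and Ccnd2, which STAT5 can also induce, were higher in Cd8-negative cells by 1.31 [1.11, 1.51] and 2.14 [1.91, 2.39], and by 1.77 [1.54, 2.01] and 2.24 [2.0, 2.48]. Both were chosen after their values were seen. Of the conventional cytokine genes 2 were tested, and Cd40lg was lower, 36.4 and 3.89 CPM against 82.6 and 72.1 CPM. Ifng, the other, was at 161 and 136 CPM against 147 and 134 CPM. Il2, which Foxp3 is known to repress, had 1 UMI over the 42 Cd8-negative Foxp3-expressing cells and 0 over the 39, with 5.05 and 7.64 CPM in the controls, too few to call a difference. None of 4 helper lineage factors was counted in either class, while Stat4 was lower in CD4-type cells.

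Homing genes gave 3 lower and 0 higher of 7 in Cd8-negative cells and none of 6 in CD8-type cells. Cxcr6, a receptor of effector cells that settle in liver and lung, was at 27.3 and 50.5 CPM against 253 and 241 CPM, log2 -3.16 [-4.17, -2.40] and -2.23 [-3.16, -1.47]. Integrin genes Itgb1 and Itga4, which pair as VLA-4, were at -2.02 [-2.51, -1.59] and -1.61 [-2.28, -1.03], and at -1.30 [-1.72, -0.92] and -1.13 [-1.60, -0.71]. Cxcr6 in CD8-type cells was lower too, past 2-fold at day +7 only, with -1.40 [-1.63, -1.19] and then -0.64 [-0.97, -0.34]. Genes for the IL-18 receptor, picked after their values were seen, were lower in Cd8-negative cells, Il18r1 at 70.5 and 66.0 CPM against 183 and 144 CPM and Il18rap at 13.6 and 19.4 CPM against 62.2 and 89.7 CPM.

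Among cytotoxic and chemokine genes, granzyme B stood out from the rest. Gzmb was at 1535 and 517 CPM in Cd8-negative cells with Foxp3 against 529 and 117 CPM without, log2 1.54 [1.42, 1.66] and 2.13 [1.87, 2.41]. CD8-type cells held 3200 and 629 CPM against 1471 and 549 CPM, log2 1.12 [1.09, 1.16] and 0.20 [0.03, 0.35], past 2-fold on the first day only. Thinned to 4000 UMIs, 87.8% and 56.7% of Cd8-negative Foxp3-expressing cells had a Gzmb UMI against 59.1% and 20.4% of the controls, and 0 of 71 and 0 of 29 barcodes without T cell receptor complex UMIs did.

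Ccl5, a chemokine of effector cells, was lower in Cd8-negative cells, 202 and 1313 CPM against 1087 and 5165 CPM. Klrd1 (CD94), an NK-type receptor, was at 11.4 and 7.77 CPM against 219 and 134 CPM, log2 -4.15 [-5.89, -3.04] and -3.94 [-7.15, -2.25]. Nkg7, a cytotoxic granule gene, was at 698 and 828 CPM against 1317 and 1550 CPM, just short of 2-fold. These were 1 higher and 2 lower of 10 tested, and none of 10 counted in CD8-type cells, where Ccl5 was at 1146 and 3296 CPM against 2521 and 6303 CPM. Gzma, at 371 and 11.7 CPM in Cd8-negative and 1957 and 52.3 CPM in CD8-type cells with Foxp3, stood below its controls at 646 and 70.9 and at 3872 and 263 CPM.

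Chemokine sums of CD4-type cells rested on single cells. Ccl3 and Ccl4 counted as higher there, yet the highest cell held 87.8% and 91.8% of the Ccl3 UMIs and 73.2% and 96.8% of the Ccl4 UMIs. Without that cell the log2 ratios were -1.39 and -2.39 for Ccl3 and -0.24 and -2.48 for Ccl4. Of the 578 Ccl1 UMIs at day +7, 401 lay in 1 of 3 cells, and all 99 Xcl1 UMIs in 1.

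By the smaller of both days' ratios, C1qtnf6 headed the CD4-type genes, at 53.8 and 87.7 CPM against 2.75 and 3.79 CPM, followed by Ikzf2 and Igkc. Rara, the retinoic acid receptor alpha, was at 73.4 and 76.7 CPM against 9.32 and 3.39 CPM, and Mxd1, an antagonist of Myc, at 97.8 and 175 CPM against 14.4 and 23.9 CPM. At the other end, Tbc1d4, which controls glucose transporter traffic, was at 4.89 and 0 CPM against 50.4 and 93.5 CPM. Ms4a4b, a membrane protein of T cells, was lower in CD4-type cells by 1.74 and 2.08 on the log2 scale, and in Cd8-negative cells it was at 546 and 152 CPM against 1665 and 1063 CPM.

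Interferon-response genes gave 2 higher of 7 in Cd8-negative cells, Isg20 (log2 2.58 [2.30, 2.90] and 1.49 [0.97, 1.99]) and Isg15 (1.67 [1.34, 2.02] and 1.38 [0.70, 2.04]), and none of 4 in CD8-type cells. Outside the list, the interferon-inducible GTPases Iigp1 and Igtp were higher in Cd8-negative cells, Iigp1 by 2.17 [1.83, 2.53] and 2.86 [2.51, 3.25] and Igtp by 1.81 [1.48, 2.16] and 1.70 [1.30, 2.11]. Gbp3 and Gbp7, and Ifi209 and Ifi214, were counted as well but belong to families of near-identical copies whose reads may be shared.

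Cd74, the invariant chain of MHC class II, was at 180 and 478 CPM against 24.7 and 65.7 CPM in Cd8-negative cells and at 65.7 and 124 CPM against 9.83 and 30.5 CPM in CD8-type cells. In the latter 47.4% of the day +7 UMIs lay in 1 cell, and the ratio without it was 1.71. Ighm, the immunoglobulin mu constant region, was at 434 and 540 CPM against 106 and 58.3 CPM in Cd8-negative and at 299 and 254 CPM against 104 and 42.5 CPM in CD8-type cells. It was spread over 33 of 42 and 33 of 39 Cd8-negative cells and 127 of 140 and 23 of 35 CD8-type cells. An Ighm UMI was also found in 6.09% and 14.5% of barcodes without T cell receptor complex UMIs.

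Beside Ighm, the B and plasma cell list of 12 genes had 9 at 0 in both classes at day +7, among them Cd79a and Ms4a1, defining B cell genes, which were at 0 on day +14 as well. Igkc was the only other gene of the list to be tested, and 1 CD4-type cell of day +14 held 1034 of its 1047 UMIs in that class. That cell had 1468 UMIs of Igkc, Ighg3 and Jchain of 6243 in all, 2 UMIs of Foxp3, 3 of Cd4 and 0 of Cd8, while the next highest Foxp3-expressing cell of day +14 had 15 over the Igkc, gamma heavy chain and Jchain genes. With Ighm counted, other Foxp3-expressing cells held up to 39 UMIs of the list at day +7. Without cells holding 5 or more UMIs of any other lineage, the Igkc ratio of CD4-type cells turned to -2.31 and -4.17. Ighm itself was left out of the UMI count that defines those cells.

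Markers of other lineages were summed per list to see what moved with Foxp3. Over all Foxp3-expressing cells against all Foxp3-zero T cells, the B and plasma list gave 429 against 150.5 CPM at day +7 and 1929 against 267 CPM at day +14, and the macrophage list 73.9 against 39.0 and 11.7 against 65.0 CPM. Neutrophil genes were lower with Foxp3, at 183 against 593 CPM and 48.6 against 938 CPM. Erythroid genes were at 62.0 against 58.0 and 12.6 against 59.6 CPM, and NK, dendritic and platelet lists at no more than 14.7 CPM with Foxp3. Cd8-negative controls of day +14 held 3753 CPM of the neutrophil list and 217 CPM of the macrophage list, against 42.7 and 3.89 CPM with Foxp3, and with cells holding 5 or more other-lineage UMIs left out of both sides 52 of 58 higher and 32 of 42 lower genes of the Cd8-negative comparison were still counted. The only 2 genes counted as lower in CD8-type cells, S100a8 and S100a9, belong to the neutrophil list. Their UMIs in the controls were concentrated, with 26.0% and 20.9% of the list's UMIs in 1 of 5784 and 1 of 5933 cells, and neither gene was counted once cells with 5 or more other-lineage UMIs were left out.

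Cycling and metabolic genes showed little that went with Foxp3. None of 8 S phase genes or 10 G2 and mitosis genes was counted in Cd8-negative or CD8-type cells, and Ccnb2 alone was lower in CD4-type cells. Thinned to 4000 UMIs, at least 3 of 10 S phase genes were detected in 52.2% and 78.8% of CD8-type cells with Foxp3 against 47.7% and 62.5% without, the day +14 interval being 61.1 to 91.0. For G2 and mitosis it was 47.8% and 69.7% against 50.9% and 55.3%. Cd8-negative cells with Foxp3 were at 43.9% and 36.7% for S phase against 32.7% and 40.9%, and at 36.6% and 26.7% for G2 and mitosis against 33.0% and 36%.

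Pgd, which encodes the oxidative pentose phosphate enzyme 6PGD, was at 47.7 and 62.2 CPM in Cd8-negative cells with Foxp3 against 40.4 and 50.8 CPM, and at 39.3 and 60.0 CPM against 42.7 and 53.3 CPM in CD8-type cells. G6pdx, the first enzyme of that branch, was at 18.2 and 7.77 CPM against 16.0 and 19.6 CPM, and at 16.3 and 25.2 CPM against 17.6 and 18.6 CPM. Of the oxidative pentose phosphate list 1 gene was tested and not counted in any class. None of 11 glycolysis genes was counted in Cd8-negative cells and none of 10 in CD8-type cells, while Slc16a3 was counted in CD4-type cells with over 50% of its UMIs in 1 cell on at least 1 day. The early activation list had 1 gene tested and none counted.

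Between the days, 82 genes were at least 2-fold higher and 35 at least 2-fold lower at day +14 in Foxp3-expressing CD8-type cells, of 2948 with 50 CPM on the higher day (2.78% and 1.19%). Scaling by the median of gene ratios in place of total UMIs gave 36 and 59, since it moved the median log2 ratio of all tested genes from 0.12 to -0.07. Foxp3-zero CD8-type cells had 41 and 48 of 2730. In CD4-type cells with Foxp3, 626 and 360 of 3283 genes were past 2-fold (19.1% and 11%), but only 290 and 148 had an interval that left out 0, as the sums come from 20 and 14 cells. Markers of other lineages moved as well in Foxp3-expressing CD8-type cells. Lyz2, a macrophage and neutrophil gene, had 125 UMIs in 5 of 140 cells at day +7 and 0 in 35 at day +14, at least 10.3-fold lower, while it was at 15.3 and 29.3 CPM in the controls. S100a8 went from 83.0 to 9.68 CPM and S100a9 from 55.1 to 19.4 CPM, against 249 to 284 and 238 to 284 CPM without Foxp3. Their part in the day counts was not tested beyond leaving out cells with 5 or more other-lineage UMIs, which gave 169 higher and 59 lower genes, 56 and 27 of them among the 82 and 35. Each value below is given beside the same ratio in Foxp3-zero CD8-type cells, and the difference between them was not tested.

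Granzyme genes were lower at day +14 in both. Gzma was at -5.20 [-5.83, -4.68] with Foxp3 and -3.88 without, and Gzmb at -2.35 [-2.51, -2.19] and -1.42. Ccl5 was higher in both, at 1.52 [1.43, 1.61] and 1.32. Ccl3 was lower with Foxp3, -1.05 [-1.51, -0.64], and higher without, 1.66. These were the 1 higher and 3 lower of 11 cytotoxic and chemokine genes.

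Of 8 interferon-response genes 5 were lower at day +14, Ifitm1 at -2.21 [-2.66, -1.81] with Foxp3 and -4.72 without, Ifitm2, Ifitm3, Isg15 at -1.28 and -0.08, and Ifi27l2a at -1.01 and -0.27. Ifitm1, Ifitm2 and Ifitm3 are close relatives and may share reads. Eomes, a T-box factor of cytotoxic and memory T cells, was higher, 2.37 [1.62, 3.36] and 2.03.

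The identity list split by day. Il2ra was lower, -1.90 [-2.62, -1.30] with Foxp3 and -2.60 without, Ikzf2 higher, 1.17 [0.88, 1.47] and 2.40, and Izumo1r higher, 1.79 [1.13, 2.56] and 2.33, while Ctla4 at 0.25 [-0.03, 0.52] and the other 3 tested were not past 2-fold. Effector Treg genes Klrg1, Pdcd1 and Rora were higher, Klrg1 at 1.19 [0.82, 1.56] with Foxp3 and 0.12 without, Pdcd1 at 1.17 [0.83, 1.51] and 0.60, and Rora at 2.19 [1.65, 2.82] and 1.11. Bcl2 and Satb1 of the resting list were higher, at 2.03 [1.30, 2.95] and 0.39, and at 1.23 [0.67, 1.83] and 0.27, though Bcl2 turned to -0.88 when cells were thinned. Penk was at 3.83 [2.94, 5.80] and 2.22, from 6 UMIs in 3 cells and 28 in 6. No gene of the S phase, G2 and mitosis, glycolysis, homing or IL-2 lists was past 2-fold.

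**Figure D5:**
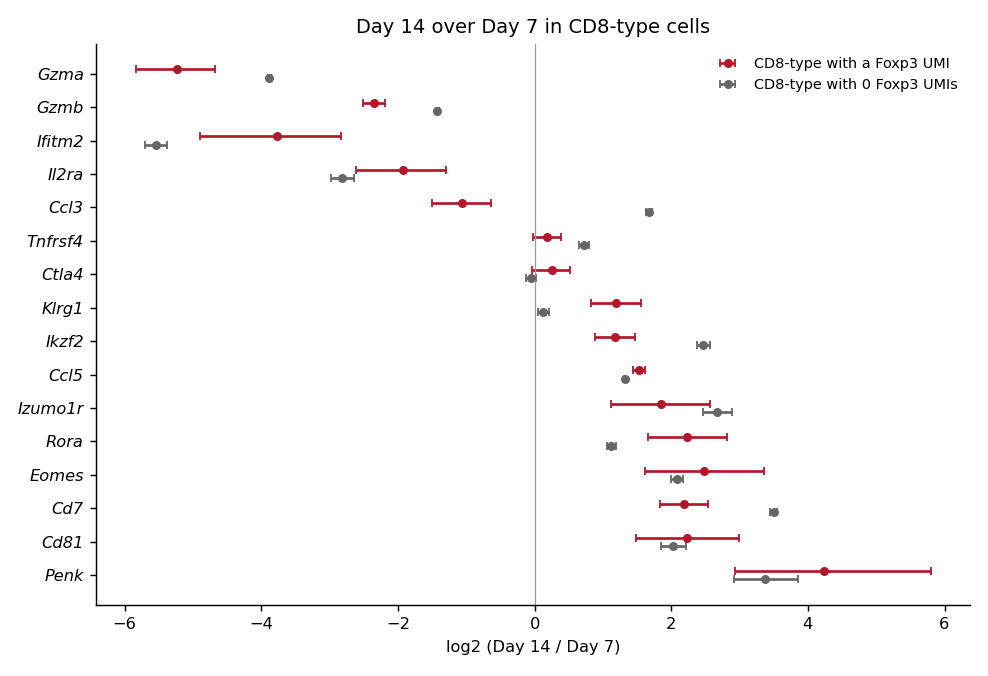
Log2 of the Day 14 over the Day 7 level (no CPM added) for 16 genes in CD8-type cells with a Foxp3 UMI (red) and with 0 Foxp3 UMIs (grey), with exact binomial 95% intervals of the ratio. Gzma, Gzmb, Ifitm2 and Il2ra lie left of 0 in both, Ikzf2, Izumo1r, Rora, Eomes and Penk right of 0 in both, and Ccl3 on opposite sides.

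In Cd8-negative cells the day values of several listed genes were set beside those of cells without Foxp3. Ccr2, the receptor that brings cells to inflamed tissue, went from 81.9 to 233 CPM with Foxp3 and from 68.9 to 19.2 CPM without. Klrg1 went from 239 to 567 CPM with Foxp3, beside 30.1 and 25.8 CPM without, and Lag3 from 31.8 to 183 CPM, beside 53.5 and 105 CPM. Ctla4 was higher at day +14 in both, at 1.14 with Foxp3 and 0.70 without, and Ikzf2 at 0.94 and 0.81. Gzmb was lower in both, at -1.57 and -2.16.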

How the data were processed

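Single-cell gene expression was measured in 2 libraries of sorted splenic donor T cells, day +7 and day +14. The authors deposited filtered count matrices (UMIs per gene and barcode) made with Cell Ranger 6.1.2 on mm10, per the labels' processing notes, and no other unit was used. The members, gene lists and rules were chosen with earlier results of these data known.

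From the counts, each gene's UMIs were added up per class of cells and scaled to CPM. Genes needed 50 CPM in the higher class and counted past 2-fold, with 1 CPM added to log2 ratios, and 23 gene lists were read against all tested genes. With 1 library a day no test was made. Levels carry exact Poisson intervals, shares Clopper-Pearson intervals and ratios exact conditional binomial intervals, all at 95%. A share of 0 allows up to 3 counts. The scripts were tested on simulated data. Python 3.11.15, numpy 2.4.6, scipy 1.17.1, pandas 2.3.3 and scanpy 1.11.5 were used, and motifs were searched in RefSeq promoter windows of GRCm38.p6.

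Scrublet's own threshold marked under 0.5% of barcodes, so the highest scores, 0.8% per 1000 barcodes, were taken as candidate doublets, and these barcodes were kept in the values given first. Named genes were the 4 markers, up to 4 genes a list with the most UMIs in CD4-type cells, and of the genes counted at both days in CD4-type cells the 12 highest and 8 lowest by the smaller ratio, and of those past 2-fold between days with the whole interval past it the 10 highest and 10 lowest. Genes outside this rule were chosen after their values were seen, among them those of the CD8-type and Cd8-negative comparisons. Alternatives covered scaling, averaging, the Foxp3 minimum, depth, doublets, other-lineage UMIs, the CPM filter and the CPM added. The CD8-type and Cd8-negative comparisons, the run without the immunoglobulin-rich cell and the runs with each gene's highest cell at 0 were added after seeing the data. The 10 highest and lowest day genes of CD4-type cells are not described one by one, as many rested on single cells. A few genes are not reported here.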

Additional observations from a re-analysis of the deposited data

Results flagged for a closer look

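For 3 genes the Foxp3-expressing cells moved one way and their comparison the other, and none of these differences was tested. Ccl3 had a log2 ratio of day +14 over day +7 of -1.05 in Foxp3-expressing CD8-type cells and 1.66 in Foxp3-zero CD8-type cells. Ccl3 was also above its control at day +14 in CD4-type cells with Foxp3, at 1.19, and below it in CD8-type ones, at -1.51, with 91.8% of the CD4-type UMIs in 1 cell. Xcl1 was at -5.55 between days in Cd8-negative cells with Foxp3 and at 1.77 in those without, resting on 100 UMIs at day +7, 99 of them in 1 cell, and 1 UMI at day +14. Ccr2 was at 1.5 in Cd8-negative cells with Foxp3 and at -1.79 in those without.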

How the results depend on the processing

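No paired analysis was possible because each day is 1 library with 1 replicate, and no replicate could be left out. The share of Foxp3-expressing cells was 1.90% and 0.658% with a minimum of 2 Foxp3 UMIs and 1.63% and 0.697% with cells thinned to 4000 UMIs, and kept its order. Of 125 alternative values of the main counts and shares, 78 stayed within 1.5 times or within the interval, and 47 did not. The counts moved furthest with no CPM filter, which lets more low genes in. Both-day counts of higher and lower genes were 142 and 125 (CD4-type), 33 and 7 (CD8-type) and 116 and 102 (Cd8-negative) with a filter of 20 CPM, and 333 and 1488, 90 and 72, and 302 and 786 with no filter. Thinned, they were 137 and 120, 36 and 14, and 94 higher in Cd8-negative cells. Lower genes of CD8-type cells numbered 5 with median-ratio scaling, 4 with per-cell means and 5 without the highest Scrublet scores, and higher ones 10 with 10 CPM added. With each gene's highest cell at 0, 37 genes were higher in CD4-type cells.

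Day counts of CD8-type cells, higher and lower, were 36 and 59 with median-ratio scaling, 125 and 68 with 2 Foxp3 UMIs, 658 and 229 thinned, 313 and 102 at 20 CPM, 1564 and 1003 unfiltered and 169 and 59 without other-lineage cells, and 148 and 40 were higher with per-cell means and with 10 CPM added. In CD4-type cells they were 954 and 552 with 2 Foxp3 UMIs, 1736 and 898 at 20 CPM and 2804 and 2616 unfiltered, with 599 lower when thinned. Median-ratio scaling moved the median log2 ratio of all tested genes in Cd8-negative cells from 0.04 and 0.05 to -0.06 and -0.09.

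Reversed values were few, and the cause was not tested. In CD8-type cells between days, S100a9 was at 0.58 with per-cell means, 1.85 with 2 Foxp3 UMIs, 0.07 thinned and 1.97 without other-lineage cells, S100a8 at 1.00 with 2 Foxp3 UMIs and 0.55 without other-lineage cells, and Bcl2 at -0.88 thinned. S100a9 against its control at day +14 was at 0.26 without other-lineage cells. Ccl4 of CD4-type cells was at -2.37 (2 Foxp3 UMIs) and -8.43 (thinned) at day +7, at -2.15 (no other-lineage cells) and -2.38 (no immunoglobulin-rich cell) at day +14, and at -3.33 and -3.42 between days under the same alternatives. Igkc of CD4-type cells was at -3.97 (thinned) and -2.31 (no other-lineage cells) at day +7 and at -4.17 (no other-lineage cells) at day +14, and Hist1h2ap, one of many near-identical histone genes, at 1.30 between days when thinned.

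Depth limits what 88 cells at day +14 can show. Foxp3 is a low transcript, so cells without a Foxp3 UMI may include cells that express it, and how many was not tested. The intervals cover counting error and not the spread between mice.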
